A study of Mus musculus with 40 samples.

Results

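A set of 10 genes of the sodium-reabsorbing axis of the kidney collecting duct were followed across the libraries: the 3 subunits of the epithelial sodium channel ENaC (Scnn1a, Scnn1b and Scnn1g), the mineralocorticoid and glucocorticoid receptors (Nr3c2 and Nr3c1), the cortisol-inactivating enzyme Hsd11b2, and 4 genes that act downstream of these receptors or on the channel (Sgk1, Nedd4l, Tsc22d3 and Fkbp5). They were chosen by name, with earlier results of these data known, and all 10 were found among the 55414 genes of the deposited table. The study used the immortalized mouse cortical collecting duct line mpkCCD, in which genes of the CREB family of cAMP-responsive transcription factors had been knocked out. Of the 22 libraries analysed, 11 came from unmodified control clones. The label ATF1/CREB1/CREM-KO was carried by 3 libraries, ATF1/CREB1-KO by 3 and ATF1-KO by 5. Another 18 samples, from a rescue experiment, were not analysed here.

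Cells of all 4 groups were grown on permeable supports and shared the same hormones. Each group received 0.1 nM dDAVP, a synthetic vasopressin analogue, for 72 h. Both culture media contained 50 nM dexamethasone, a synthetic glucocorticoid, and the labels list no aldosterone. The corticosteroid listed was thus the same in controls and knockouts. The library numbers form 3 consecutive stretches, called runs here, which the labels do not describe as batches. Run 1 holds control clones 1 to 5 and the ATF1-KO libraries, run 2 holds control clones 6 to 8 and the ATF1/CREB1-KO libraries, and run 3 holds control clones 9 to 11 and the ATF1/CREB1/CREM-KO libraries. Each knockout label was compared with the control clones of its own run. Whether knockout replicates are separate clones is not given in the labels, so p-values measure only the spread between these libraries.

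Aldosterone and cortisol enter principal cells and bind the mineralocorticoid receptor, and Hsd11b2 protects that receptor by converting cortisol to its inactive form. Ligand-bound receptor raises transcription of Sgk1, a kinase that phosphorylates the ubiquitin ligase Nedd4l and so keeps it from removing ENaC from the apical membrane. Glucocorticoids acting through Nr3c1 induce some of the same genes, and Tsc22d3 (also known as Gilz) and Fkbp5 are common markers of corticosteroid receptor activity. Vasopressin, through cAMP, acts on the same cells to insert the water channel Aqp2 and to stimulate sodium transport.

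The values are TPM, a relative transcript abundance, which correct for transcript length, so levels of different genes can be set side by side. Number of reads per library is not given by this unit, and between 17296 and 20703 genes were above 0 in a library. Mean Atf1 level was 63.0%, 77.8% and 80.8% of the own-run control in libraries with ATF1, with ATF1 and CREB1, and with all 3 factors in the label. Creb1 stood at 61.0% and 49.6% under the latter 2 labels, and Crem at 135% in the ATF1/CREB1/CREM-KO libraries. Of these changes, only that of Creb1 in the ATF1/CREB1/CREM-KO libraries had an adjusted p under 0.05 (limma adjusted p = 0.00305). Where the label does not name them, Creb1 was at 127% and Crem at 133% under ATF1-KO, and Crem at 253% under ATF1/CREB1-KO. Limma adjusted p values of these were 0.514, 0.628 and 0.467. RNA level does not show whether a coding change is present. Aqp2, the vasopressin-regulated water channel, was at 1.02% of its own-run control in the ATF1/CREB1/CREM-KO libraries (log2 change -6.34, SE 0.43, limma adjusted p = 8.6e-04). Ribosomal protein genes (89 by name) made up 7.21% to 15.3% of total TPM in run 2 and 2.69% to 4.15% in the other libraries. Of the 10 principal cell markers read, 6 averaged 1 TPM or more and 3 of the others (Elf5, Kcnj1 and Kcne1) never passed 1.33 TPM. Of the 8 intercalated cell markers read, 2 averaged 1 TPM or more: Atp6v1b1 (14.42 to 102.82 TPM over the 22 libraries) and Aqp6 (0.67 to 20.78 TPM). Kit and Atp6v1g3 of the same list were at 0 in all libraries and Foxi1 did not pass 0.05 TPM. In bulk RNA, fewer cells expressing a gene and less RNA of it per cell cannot be told apart.

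Under the ATF1/CREB1/CREM-KO label, 3 of the 10 genes rose and none fell. Sgk1 rose most, to a mean 12.0 times that of its own-run control clones, Nr3c2 rose to 4.07 times and Fkbp5 to 1.85 times. Of all 13258 genes tested in this comparison 9.17% (1216) were called, 3.91% as higher. With 1 library left out, 1 to 5 of the 10 were called, Sgk1 each time. Those refits called 185 to 489 of all genes, and 3317 without ATF1/CREB1/CREM-KO replicate 1, so the member counts moved with a shifting background. The median log2 change of the 10 genes was 0.45, beside -0.045 for all genes tested. In the ATF1/CREB1-KO libraries the same comparison called none of the 9 genes tested, against a background of 0.0715% of 12579 genes. There, 3 of the 9 had an unadjusted p under 0.05 (Sgk1, Nr3c2 and Hsd11b2), as had 9.53% of all genes, and the median change was 0.36 beside -0.030. Under the ATF1-KO label limma called none of 9 genes, and 0% of all 13318 genes, of which 1014 (7.61%) had an unadjusted p under 0.05. The fit with run as a covariate called none either. Hsd11b2 was the single one of the 9 with an unadjusted p under 0.05 there, and the median change was -0.11 beside -0.0035. Scnn1b lay under the mean of 1 TPM needed for testing in both of these comparisons.

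**Figure D1:**
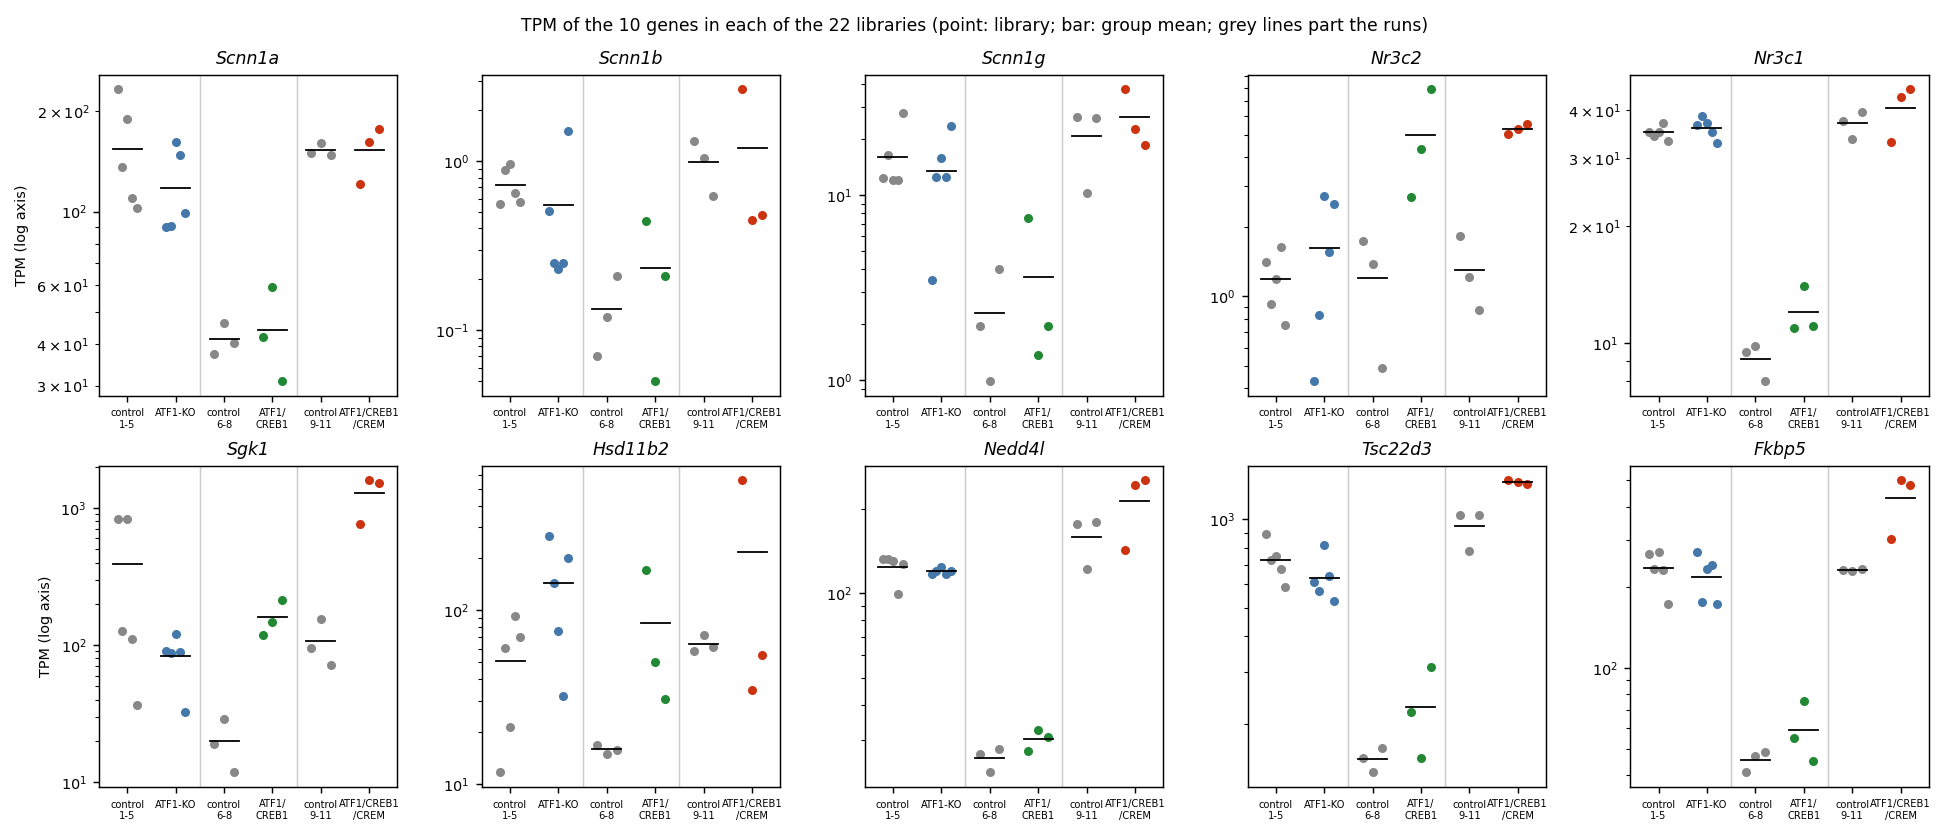
TPM of each of the 10 genes (vertical log axis, scaled separately for each gene) in the 22 libraries, ordered by run; each point is 1 library and each bar is the mean of its group. Sgk1 in the ATF1/CREB1/CREM-KO libraries lay between 760.02 and 1585.40 TPM against 71.51 to 156.25 in control clones 9 to 11, and Scnn1a, Nr3c1, Nedd4l, Tsc22d3 and Fkbp5 were lower in all 6 libraries of run 2 than in any other.

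Counting complete separation of the libraries gave a similar set of genes. In the ATF1/CREB1/CREM-KO comparison all 3 knockout libraries lay above all 3 control clones for 4 of the 10 genes (Sgk1, Nr3c2, Fkbp5 and Tsc22d3), while 34.6% of all genes did not overlap, 14.5% in the upward direction. ATF1/CREB1-KO libraries lay wholly above their controls for 4 of 9 genes (Sgk1, Nr3c2, Hsd11b2 and Nr3c1), against 19% of all genes without overlap and 6.67% upward. With 5 libraries against 5, no member separated under the ATF1-KO label, where 1.3% of all genes did. When the run was instead a covariate in a single fit of all 22 libraries, which shares the spread across groups, Sgk1 and Nr3c2 were called in the ATF1/CREB1-KO comparison, beside 4.58% of all genes. That fit called the same 3 members under the ATF1/CREB1/CREM-KO label, beside 8.02% of all genes.

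The pore-forming alpha subunit of ENaC was by far the most abundant of the 3 subunits. Scnn1a made up 75.2% to 97.7% of the summed TPM of the 3 subunits in every one of the 22 libraries, Scnn1g 2.09% to 23.2%, and Scnn1b 0.0822% to 1.66%. Scnn1b and Scnn1g are neighbours on chromosome 7 with 0 protein-coding genes annotated between them, whereas Scnn1a lies on chromosome 6. The mean level of Scnn1g was 16.1 TPM and that of Scnn1b 0.73 TPM in control clones 1 to 5.

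Scnn1a did not pass the test under any label. Control clones 9 to 11 had 149.47, 160.98 and 148.29 TPM of Scnn1a and the ATF1/CREB1/CREM-KO libraries 121.23, 162.27 and 176.51. The knockout values straddled the narrow control range, with 1 library below it and 2 above. The log2 change was -0.013 (SE 0.14, limma adjusted p = 0.966), and its 95% interval ran from -0.36 to 0.33, that is, from 0.781 to 1.26 times the control level. In run 2 the control clones had 37.33, 46.22 and 40.35 TPM and the ATF1/CREB1-KO libraries 41.98, 59.43 and 30.97. Again the groups overlapped, with a log2 change of 0.050 (95% interval -0.59 to 0.69, limma adjusted p = 0.960). Among control clones 1 to 5 the channel subunit ranged widely, at 233.28, 135.72, 190.05, 110.20 and 102.69 TPM, and the ATF1-KO libraries had 89.93, 90.48, 161.87, 147.71 and 98.83. Of the ATF1-KO libraries 3 lay below every control clone of the run and the other 2 within the control range (log2 change -0.36, SE 0.25, limma adjusted p = 0.745).

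Scnn1g, the gamma subunit, varied more from clone to clone than the alpha subunit. Its values in control clones 9 to 11 were 26.41, 10.20 and 26.00 TPM, and in the ATF1/CREB1/CREM-KO libraries 37.35, 22.75 and 18.71. The ranges overlapped and the log2 change of 0.37 had a 95% interval of -0.59 to 1.34 (limma adjusted p = 0.599), so neither a fall to 0.663 times nor a rise to 2.52 times lay outside it. Levels in run 2 were lower, at 1.95, 0.99 and 3.99 TPM in the control clones and 7.50, 1.37 and 1.96 in the ATF1/CREB1-KO libraries. Only ATF1/CREB1-KO replicate 1 exceeded its controls (log2 change 0.34, limma adjusted p = 0.855). Control clones 1 to 5 held 12.29, 16.38, 12.13, 12.13 and 27.64 TPM, and the ATF1-KO libraries 3.48, 12.53, 15.77, 12.58 and 23.50. ATF1-KO replicate 1 was the single library below the control range, and the log2 change was -0.35 (limma adjusted p = 0.842).

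Transcripts of Scnn1b, the beta subunit, were close to the lower end of the measurement everywhere. The highest of the 22 libraries was ATF1/CREB1/CREM-KO replicate 1 with 2.67 TPM, beside 0.45 and 0.48 in the other 2 of that label and 1.32, 1.04 and 0.62 in control clones 9 to 11. Testing was possible in that comparison alone and gave a log2 change of 0.013 with a 95% interval from -0.99 to 1.01 (limma adjusted p = 0.988). In run 1 the control clones ranged from 0.56 to 0.96 TPM and the ATF1-KO libraries from 0.23 to 1.51, and in run 2 the ranges were 0.07 to 0.21 and 0.05 to 0.44.

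Nr3c2, the mineralocorticoid receptor, was a low-abundance transcript whose control level was nearly the same in all runs. Control clones 9 to 11 had 1.83, 1.21 and 0.87 TPM and the ATF1/CREB1/CREM-KO libraries 5.04, 5.30 and 5.56. All 3 knockout libraries were above every one of the 11 control clones of the study, whose highest value was 1.83 TPM, and they lay close together. Nr3c2 rose by 1.47 on the log2 scale (SE 0.21, limma adjusted p = 0.0119). Leaving out control clone 11, or ATF1/CREB1/CREM-KO replicate 2 or 3, moved the adjusted p to between 0.051 and 0.0567 with nearly the same change. The ATF1/CREB1-KO libraries had 2.70, 4.32 and 7.88 TPM against 1.73, 1.38 and 0.49 in control clones 6 to 8. Here too the groups were separate, but the knockout libraries were far apart from each other, and the log2 change of 1.39 (SE 0.38) had a limma adjusted p of 0.371 against own-run controls and of 0.0256 with the shared spread. ATF1-KO libraries, at 0.43, 0.83, 2.72, 1.56 and 2.51 TPM, had 2 values above and 1 below the control range of 0.75 to 1.63 (log2 change 0.18, limma adjusted p = 0.887).

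Nr3c1, the glucocorticoid receptor, was the more abundant receptor in every library and among the least variable members. Its values ran from 33.30 to 36.94 TPM in control clones 1 to 5 and from 32.74 to 38.43 in the ATF1-KO libraries (log2 change 0.038, 95% interval -0.10 to 0.18, limma adjusted p = 0.899). Control clones 9 to 11 had 37.40, 33.63 and 39.58 TPM and the ATF1/CREB1/CREM-KO libraries 32.97, 43.19 and 45.21, which overlapped (log2 change 0.12, limma adjusted p = 0.628). In run 2 the control clones had 9.47, 9.81 and 7.98 TPM and the ATF1/CREB1-KO libraries 10.94, 14.02 and 11.04. These 2 groups did not overlap, and the log2 change was 0.36 (SE 0.18, limma adjusted p = 0.595). Set against Nr3c1, Nr3c2 amounted to 3.36% ± 0.89 (SD, n = 5) in control clones 1 to 5 and 3.56% ± 1.35 (n = 3) in control clones 9 to 11. The same ratio was 4.57% ± 2.95 (n = 5) under the ATF1-KO label and 13.3% ± 1.73 (n = 3) under the ATF1/CREB1/CREM-KO label. Ratios in run 2 were higher, at 12.8% ± 6.16 (n = 3) in control clones, where Nr3c1 was low, and 42.3% ± 25.4 (n = 3) in the ATF1/CREB1-KO libraries.

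Hsd11b2, which converts cortisol into inactive cortisone, differed widely between libraries of the same knockout label. The ATF1/CREB1/CREM-KO libraries had 558.29, 34.73 and 55.06 TPM, so that 1 library was far above and the other 2 below control clones 9 to 11 with 58.34, 72.08 and 61.57. The log2 change was 0.68 (95% interval -1.58 to 2.94, limma adjusted p = 0.686), and without replicate 1 it was -0.53 (limma adjusted p = 0.0921). ATF1/CREB1-KO libraries had 171.37, 50.38 and 30.93 TPM, all above the tight range of control clones 6 to 8 at 16.70, 14.93 and 15.66 (log2 change 1.97, SE 0.57, limma adjusted p = 0.375 against own-run controls). In run 1 the control clones had 11.65, 60.42, 21.22, 92.15 and 69.91 TPM and the ATF1-KO libraries 265.56, 143.36, 75.61, 32.16 and 198.98. There were 3 ATF1-KO libraries that exceeded every control clone of the run, 1 lay inside the control range above most of them and 1 in its lower part (log2 change 1.48, SE 0.66, limma adjusted p = 0.653).

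Sgk1, the corticosteroid-induced kinase that acts on Nedd4l, showed the largest changes of the 10 genes. Control clones 9 to 11 had 95.08, 156.25 and 71.51 TPM and the ATF1/CREB1/CREM-KO libraries 760.02, 1585.40 and 1524.37. Every knockout library was above every control clone of its run by a wide margin. Sgk1 rose by 3.57 on the log2 scale (SE 0.37, 95% interval 2.69 to 4.45, limma adjusted p = 0.00418), and against all 11 control clones by 3.77 (limma adjusted p = 0.133). In run 2 the levels were 18.94, 28.96 and 11.85 TPM in control clones 6 to 8 and 118.74, 148.33 and 211.49 in the ATF1/CREB1-KO libraries. This separation was equally complete, with a mean 8.01 times that of the controls and a log2 change of 2.98 (SE 0.36, 95% interval 2.13 to 3.84). The adjusted p of this change was 0.0568 in the own-run limma fit and 0.0433 with the spread shared over 22 libraries.

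In run 1 the control clones fell far apart for Sgk1. Control clones 1 and 3 had 828.95 and 833.59 TPM, while control clones 2, 4 and 5 had 126.85, 110.58 and 36.34. The ATF1-KO libraries had 91.07, 87.12, 120.37, 89.09 and 32.57 TPM, near the lower control clones, with 1 value below the control range. The log2 change was -1.39 (SE 0.80, limma adjusted p = 0.713), and without control clone 1 or without control clone 3 it was -0.89. Those 2 control clones also had the highest Scnn1a (233.28 and 190.05 TPM) and the lowest Hsd11b2 (11.65 and 21.22 TPM) of the 5, as the map of values relative to own-run controls shows. In absolute terms the ATF1/CREB1/CREM-KO range of 760.02 to 1585.40 TPM thus took in the level of control clones 1 and 3, and the ATF1/CREB1-KO libraries lay below it.

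**Figure D2:**
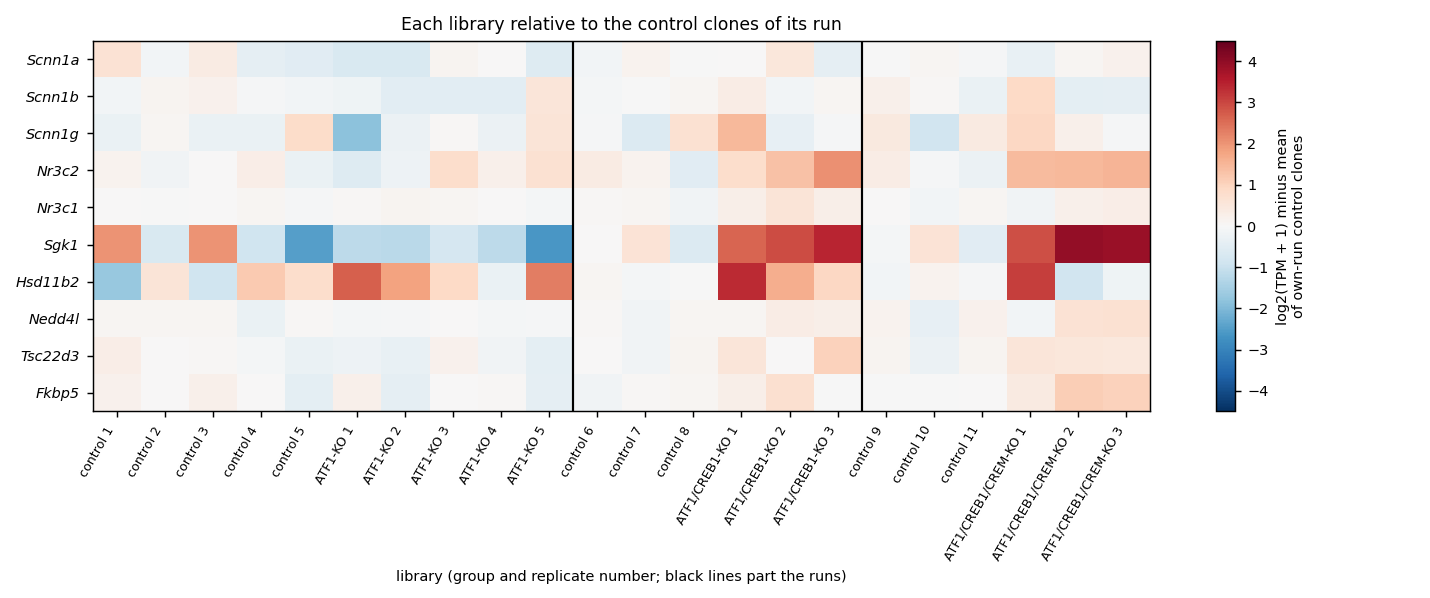
Values of log2(TPM + 1) minus the average of own-run controls (colour scale, red above and blue below) for the 10 genes (rows) in the 22 libraries (columns, runs parted by black lines). Sgk1 and Nr3c2 are above the own-run mean in all 6 libraries of the ATF1/CREB1/CREM-KO and ATF1/CREB1-KO labels, and control clones 1 and 3 stand apart from clones 2, 4 and 5 for Sgk1 and Hsd11b2.

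The change of Sgk1 was tested between labels as a difference of own-run changes. It was larger under ATF1/CREB1/CREM-KO than under ATF1-KO by 4.96 on the log2 scale (SE 1.05, limma adjusted p = 0.0106), a call that Sgk1 alone of the 9 members tested received, where 3.57% of all genes did. It was larger under ATF1/CREB1-KO than under ATF1-KO by 4.37 (SE 1.05, limma adjusted p = 0.0404), again the single member called, beside 1.46% of all genes. This second call was lost when control clone 1 or 3 was left out, with adjusted p values of 0.0591 and 0.054, and without control clone 6, 7 or 8 or ATF1-KO replicate 1, 2, 4 or 5, with values of 0.0557 to 0.103. Between the ATF1/CREB1/CREM-KO and ATF1/CREB1-KO labels no member was called, and 0.188% of all genes were. For Sgk1 that difference was 0.59 (SE 1.17, 95% interval -1.86 to 3.04, limma adjusted p = 0.905). Nr3c2 changed by 1.21 more under ATF1/CREB1-KO and by 1.29 more under ATF1/CREB1/CREM-KO than under ATF1-KO, with adjusted p values of 0.176 and 0.129.

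Sgk1 lies on mouse chromosome 10 and has 6 annotated start sites in the RefSeq promoter table (GRCm38.p6), Tsc22d3 on chromosome X has 3, and Scnn1b, Scnn1g, Nr3c2 and Fkbp5 have 1 each. These 6 of the 10 genes were matched. The 250 bases before each start were searched on both strands for the full cAMP response element TGACGTCA, for the shorter site TGACG contained in it, and for the corticosteroid response element core, which is GNACA and TGTNC with 3 bases between them. Such a core was found before 1 start of Sgk1 and before no other of the 13 starts, and it was present in 0.387% of 32851 promoter windows of the same length. TGACG was found before 1 start of Sgk1 and 1 of Tsc22d3 and in 17.8% of all windows, and TGACGTCA before none, against 1.55% of all windows. All 3 windows with a match are shown, and expression level played no part in choosing them. Capitals mark the match, each sequence reads 5′ to 3′ along the strand of the gene, and its last base is the one before the start site.
Sgk1, chr10:21993640-21993889, plus strand, corticosteroid core: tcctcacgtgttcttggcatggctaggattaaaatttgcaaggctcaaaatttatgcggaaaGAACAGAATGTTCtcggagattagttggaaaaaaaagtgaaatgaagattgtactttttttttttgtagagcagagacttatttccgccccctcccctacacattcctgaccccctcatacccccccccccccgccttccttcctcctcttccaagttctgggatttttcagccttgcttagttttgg
Sgk1, chr10:21978422-21978671, plus strand, TGACG: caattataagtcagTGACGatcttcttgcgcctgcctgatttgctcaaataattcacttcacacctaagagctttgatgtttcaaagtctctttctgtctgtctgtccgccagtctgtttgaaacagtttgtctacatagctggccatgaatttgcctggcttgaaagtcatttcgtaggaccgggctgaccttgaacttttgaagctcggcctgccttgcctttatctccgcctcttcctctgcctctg
Tsc22d3, chrX:140548572-140548821, minus strand, TGACG: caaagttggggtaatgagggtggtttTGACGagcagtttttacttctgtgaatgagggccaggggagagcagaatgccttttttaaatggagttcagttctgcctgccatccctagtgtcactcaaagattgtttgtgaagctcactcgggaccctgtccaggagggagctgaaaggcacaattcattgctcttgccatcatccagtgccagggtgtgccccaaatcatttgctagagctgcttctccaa
In the first window of Sgk1 the core lies 188 to 176 bases before the start, and in the second window TGACG lies 236 to 232 bases before it. The TGACG of Tsc22d3 lies 224 to 220 bases before its start. A match describes the letters of the window and is no measure of binding, and gene-level TPM do not tell which start was used.

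Nedd4l, the ubiquitin ligase that removes ENaC from the membrane, was abundant and nearly level in run 1. Control clones 1 to 5 had 99.51 to 132.76 TPM with a median of 130.08, and the ATF1-KO libraries 116.82 to 124.28, inside that range (log2 change -0.047, 95% interval -0.23 to 0.13, limma adjusted p = 0.901). In run 2 the control clones had 26.71, 22.99 and 27.77 TPM and the ATF1/CREB1-KO libraries 27.38, 32.62 and 30.82, which overlapped by 1 library (log2 change 0.22, limma adjusted p = 0.725). In run 3 the control clones had 177.00, 121.59 and 178.53 TPM and the ATF1/CREB1/CREM-KO libraries 142.36, 243.80 and 252.10. Replicates 2 and 3 were above all control clones and replicate 1 was between them, with a log2 change of 0.39 (SE 0.26, limma adjusted p = 0.367). Without replicate 1 the change was 0.66 (limma adjusted p = 0.0333), in a refit that called 3317 of all genes.

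Tsc22d3, a glucocorticoid-induced leucine zipper protein, had the highest control level of the 10 genes and ranked 124th of 24095 genes above 0 in control clones 1 to 5 and 86th of 21767 in control clones 9 to 11. Control clones 9 to 11 had 1033.57, 777.28 and 1035.09 TPM and the ATF1/CREB1/CREM-KO libraries 1359.23, 1342.40 and 1322.03. The knockout libraries were within 1.03 times of each other and all above the controls. Their log2 change of 0.51 (SE 0.12, 95% interval 0.22 to 0.81) had a limma adjusted p of 0.0514, and of 0.147 with the shared spread. With a pseudocount of 0.1 the adjusted p was 0.0493, with median-ratio scaling 0.0469 and without replicate 1 0.0363. The refit without replicate 1 called 3317 of all genes. In run 2 the control clones had 153.20, 136.81 and 165.67 TPM and the ATF1/CREB1-KO libraries 219.45, 152.67 and 312.32, with 1 knockout library inside the control range (log2 change 0.53, limma adjusted p = 0.613). ATF1-KO libraries ranged from 528.10 to 817.85 TPM and their control clones from 587.54 to 891.04 (log2 change -0.20, limma adjusted p = 0.736).

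Fkbp5 encodes a co-chaperone of steroid receptors that corticosteroids induce and that in turn lowers receptor affinity for hormone. Its values in control clones 9 to 11 were almost the same, at 231.22, 230.95 and 234.40 TPM, and the ATF1/CREB1/CREM-KO libraries had 303.95, 500.24 and 481.37. All 3 were above the controls, with replicate 1 the nearest to them. Fkbp5 rose by 0.85 on the log2 scale (SE 0.19, limma adjusted p = 0.0405), and the adjusted p was 0.0177 with the shared spread. Leaving out any 1 control clone, or ATF1/CREB1/CREM-KO replicate 2 or 3, moved the adjusted p to between 0.117 and 0.144, and it was 0.089 with no filter on low genes and 0.437 against all 11 control clones. In run 2 the control clones had 40.96, 47.01 and 48.89 TPM and the ATF1/CREB1-KO libraries 55.09, 75.73 and 45.14, which overlapped (log2 change 0.33, limma adjusted p = 0.707). ATF1-KO values of 173.71 to 271.21 TPM covered nearly the same range as control clones 1 to 5 at 172.80 to 271.00 (log2 change -0.11, limma adjusted p = 0.879).

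**Figure D3:**
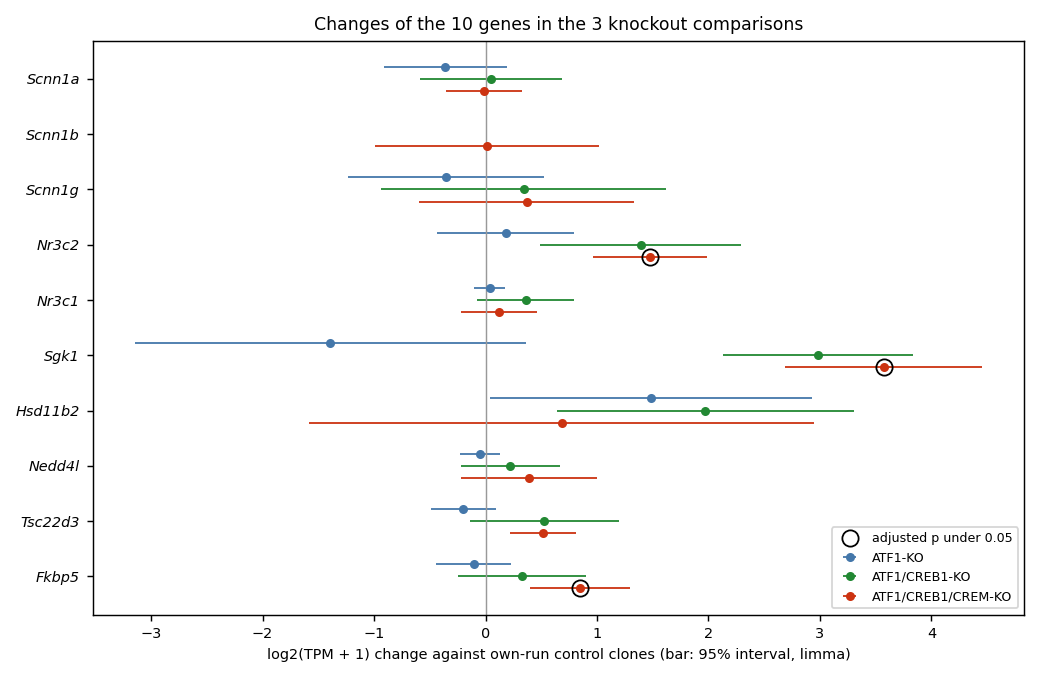
Change of each gene against the control clones of its run, as log2(TPM + 1) (horizontal axis), for the 3 knockout labels; points are limma estimates, bars their 95% intervals, and rings mark an adjusted p under 0.05. Sgk1 (3.57), Nr3c2 (1.47) and Fkbp5 (0.85) are ringed under ATF1/CREB1/CREM-KO, and the intervals of the 3 ENaC subunits include 0 wherever they were tested.

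Across the 11 control clones the order of mean levels, from the highest, was Tsc22d3, Sgk1, Fkbp5, Scnn1a, Nedd4l, Hsd11b2, Nr3c1, Scnn1g, Nr3c2 and Scnn1b. Means were 629.96 ± 336.14 TPM (SD, n = 11) for Tsc22d3, 210.81 ± 310.28 for Sgk1, 182.64 ± 91.43 for Fkbp5, 123.14 ± 63.44 for Scnn1a and 106.93 ± 56.84 for Nedd4l. Those of Sgk1, Fkbp5, Scnn1a and Nedd4l differed by less than their spread, and so did those of Hsd11b2 (44.97 ± 29.17) and Nr3c1 (28.42 ± 12.55). Scnn1g followed with 13.65 ± 9.63 TPM, Nr3c2 with 1.22 ± 0.43 and Scnn1b with 0.64 ± 0.40. The second place of Sgk1 held in run 1 alone, where control clones 1 and 3 carried its mean of 387 TPM. In control clones 9 to 11 its mean of 108 TPM was below those of Fkbp5 (232), Nedd4l (159) and Scnn1a (153), and in control clones 6 to 8 its mean of 19.9 TPM was below those of Fkbp5 (45.6), Scnn1a (41.3) and Nedd4l (25.8).

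Much of that spread lay between runs. Control clones 6 to 8 were below all other control clones for 8 of the 10 genes. Mean levels in the other control clones were 14.2 times those of run 2 for Sgk1, 7.75 times for Scnn1g, 6.20 for Scnn1b, 5.33 for Tsc22d3, 5.32 for Nedd4l, 5.13 for Fkbp5, 3.92 for Nr3c1 and 3.72 for Scnn1a. Hsd11b2 overlapped between runs through control clone 1 (11.65 TPM), and Nr3c2 was level, with a ratio of 1.02. Ribosomal protein genes took 14.4% to 15.3% of the TPM in control clones 6 to 8 and 7.21% to 13.2% in the ATF1/CREB1-KO libraries, and their part in the levels of run 2 was not tested. Against all 11 control clones in place of own-run ones, Scnn1a, Scnn1g, Nr3c1, Nedd4l, Tsc22d3 and Fkbp5 were therefore lower, not higher, in the ATF1/CREB1-KO libraries, by log2 changes of -0.99 to -1.49, whereas Sgk1 (0.80, limma adjusted p = 0.508), Nr3c2 (1.36) and Hsd11b2 (0.85) stayed higher.

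Genes whose values ran most like a member's over the 22 libraries were sought among 10497 genes averaging 5 TPM or more, by Pearson's r of values centred on own-run controls. These libraries share runs and hence their controls, so r is a description. Nearest to Nr3c2 were Ramp3 (r = 0.93), Rhbdd1 (0.91) and Cyb561 (0.88). Nearest to Scnn1a were Sema4g (0.86), Dock1 (0.85) and St6gal1 (0.83), and nearest to Scnn1g were Slc33a1 (0.79), Ctso (0.78) and Tuft1 (0.72). Scnn1b, with its low values, had U6 (0.72), Ddhd1 (0.71) and Hscb (0.70). By rank correlation 2 of the 3 genes nearest to Nr3c2 stayed among its 3 nearest, and 1 of 3 for each ENaC subunit.

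Other genes of the axis, in 4 lists, were read in the same fits. Among 17 genes that process ENaC or control its ubiquitination, limma called none under ATF1-KO or ATF1/CREB1-KO, own-run or with the shared spread. An own-run unadjusted p under 0.05 was reached by 1 gene in each, beside 7.61% and 9.53% of all genes. Under ATF1/CREB1/CREM-KO 2 rose and 1 fell, with a median log2 change of 0.046. Of all genes tested there 3.91% were called higher and 5.26% lower, and their median was -0.045. An unadjusted p under 0.05 was reached by 8 of the 17, beside 27% of all genes. Wwp1, a ubiquitin ligase of the Nedd4 family, rose from 12.8 ± 1.90 to 25.2 ± 1.30 TPM (SD, n = 3 each; log2 change 0.94, limma adjusted p = 0.0109). Furin, a protease that cleaves the alpha and gamma subunits, rose from 68.2 ± 1.88 to 89.7 ± 6.82 TPM (log2 change 0.39, limma adjusted p = 0.0421, and 0.315 with the shared spread). St14 was called with the shared spread alone (log2 change 0.35, limma adjusted p = 0.0364, and 0.0502 own-run). Usp10, a deubiquitinating enzyme, fell from 334 ± 45.2 to 187 ± 43.3 TPM (log2 change -0.85, limma adjusted p = 0.0334).

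The list of kinases around Sgk1 (mTORC2 components, Sgk paralogues and the WNK pathway) had 17 genes. Limma called none of its 15 tested genes under ATF1-KO or ATF1/CREB1-KO in either fit. An own-run unadjusted p under 0.05 was reached by 3 and 1 of them, beside 7.61% and 9.53% of all genes. Under ATF1/CREB1/CREM-KO 2 of 16 rose and none fell, beside 3.91% and 5.26% of all genes, and the median log2 change was 0.022 beside -0.045. There 4 of the 16 had an unadjusted p under 0.05, beside 27% of all genes. Stk39, the SPAK kinase through which WNK kinases act on sodium-chloride cotransporters, rose from 0.52 ± 0.20 to 7.76 ± 3.63 TPM (SD, n = 3 each; log2 change 2.43, limma adjusted p = 0.013). It averaged under 1 TPM in the controls, was tested in this comparison alone, and passed the filter on low values through the knockout libraries where it was high, so its call is no support for the count. Sgk2, a paralogue of Sgk1, rose from 4.91 ± 0.71 to 10.4 ± 1.33 TPM (log2 change 0.94, limma adjusted p = 0.0204), far below the level of Sgk1. Under ATF1-KO Sgk2 was at 6.50 ± 1.00 TPM against 3.14 ± 1.12 (SD, n = 5 each), with all 5 libraries above all controls and a log2 change of 0.89 that was not called (limma adjusted p = 0.514, and 0.0937 with the shared spread). The list of chaperones and coregulators of steroid receptors had 19 genes, Hsd11b1 and H6pd among them. Limma tested 18 under ATF1-KO and ATF1/CREB1-KO and 19 under ATF1/CREB1/CREM-KO, and called none in either fit. Hsd11b1 was tested only in the own-run fit of ATF1/CREB1/CREM-KO. An unadjusted p under 0.05 was reached by 1 of them under ATF1-KO, 0 under ATF1/CREB1-KO and 4 under ATF1/CREB1/CREM-KO. These counts stood beside 7.61%, 9.53% and 27% of all genes, and under ATF1/CREB1/CREM-KO the median log2 change was 0.063.

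Other genes that corticosteroids induce changed in both directions. Of 23 such genes 21 were tested under ATF1/CREB1/CREM-KO, where 1 rose (3.91% of all genes did), 3 fell (5.26% of all genes) and the median log2 change was -0.11, beside -0.045 for all genes. With the shared spread 3 were called higher (Glul, and Edn1 and Rasd1 at limma adjusted p = 0.0385 and 0.0425) and 3 lower (Cebpd, Mt2, and Lcn2 at 0.00743), beside 2.9% and 5.12% of all genes. Glul, glutamine synthetase, rose from 11.4 ± 0.56 to 28.4 ± 10.6 TPM (SD, n = 3 each; log2 change 1.18, limma adjusted p = 0.0484). Cebpd, a transcription factor, fell from 20.9 ± 12.3 to 2.51 ± 1.08 TPM (log2 change -2.46, limma adjusted p = 0.0393). Its relative Cebpb fell from 237 ± 16.8 to 138 ± 6.98 TPM (log2 change -0.78, limma adjusted p = 0.00539, and 0.0558 with the shared spread). Mt2, a metallothionein, fell from 232 ± 39.7 to 96.8 ± 27.0 TPM (log2 change -1.28, limma adjusted p = 0.0227). No gene of this list was called under ATF1-KO or in the own-run fit of ATF1/CREB1-KO, in which 6 of 18 had an unadjusted p under 0.05, beside 9.53% of all genes. With the shared spread Cebpd (log2 change -1.97, limma adjusted p = 0.0412) and Mt2 (-1.65, limma adjusted p = 0.0199) were called lower in the ATF1/CREB1-KO libraries. These 4 lists were drawn up with earlier results of the same libraries known and are not independent of them.

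**Figure D4:**
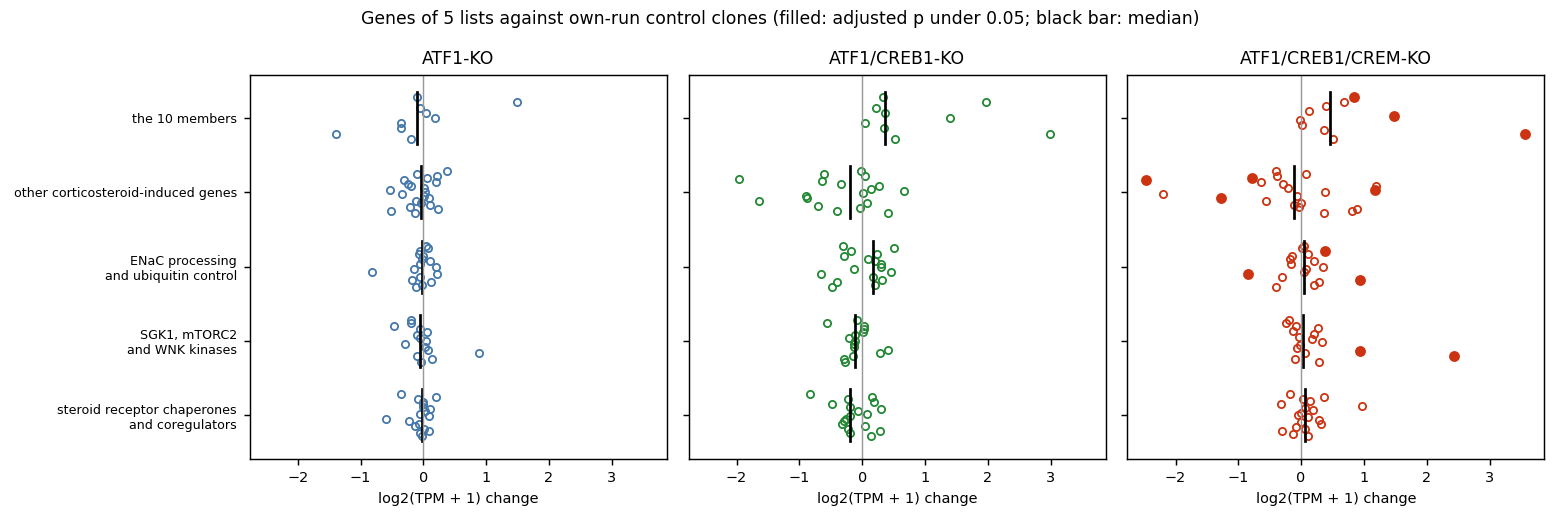
Log2(TPM + 1) change against own-run control clones (horizontal axis) for the genes tested in 5 lists (rows), with 1 panel for each knockout label; each point is 1 gene, filled where its adjusted p is under 0.05, and black bars are medians. Under ATF1/CREB1/CREM-KO the median is 0.45 for the 10 genes and -0.11 for the other corticosteroid-induced genes.

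Summed principal cell markers, Aqp2 included, were 542 to 872 TPM in the ATF1/CREB1/CREM-KO libraries and 1421 to 3565 TPM in control clones 9 to 11. Aqp2 alone was 15.1 to 16.05 TPM in these knockout libraries and 640.62 to 2279.29 TPM in these control clones. No sum without Aqp2 was taken, so whether the other principal cell markers also fell was not tested. Under the ATF1/CREB1-KO label the sums ranged from 1208 to 5036 TPM beside 1479 to 3182 in its control clones. Aqp2 was at most 637.03 TPM under that label, and Fxyd4 of the same list spanned 51.8 to 4198.34 TPM over the 22 libraries. Summed intercalated cell markers were 68.2 to 102 TPM in the ATF1/CREB1/CREM-KO libraries and 89.3 to 114 TPM in their control clones, and these sums came almost entirely from Atp6v1b1 and Aqp6. Distal convoluted tubule markers (Slc12a3, Trpm6 and Pvalb) summed to 3.71 to 6.12 TPM in the ATF1/CREB1/CREM-KO libraries and 0.59 to 1.46 TPM in control clones 9 to 11, without overlap and with Pvalb at 0 in every library. Leukocyte markers (Ptprc, Cd68 and Lyz2) summed to 2.28 to 3.35 TPM and 5.00 to 8.02 TPM in the same libraries, again without overlap, and Lyz2 was at 0 in every library. The part of any of these marker lists in the changes of Sgk1, Nr3c2 and Fkbp5 was not tested.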

How the data were processed

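RNA from 22 libraries of mpkCCD cells (11 control clone, 5 ATF1-KO, 3 ATF1/CREB1-KO, 3 ATF1/CREB1/CREM-KO) was amplified as cDNA with a SMARTer kit, tagmented with Nextera XT and sequenced with paired-end reads, per the labels' protocols. The deposited values are TPM, as each column sums to between 999999.45 and 1000001. STAR and RSEM are named in the submitters' processing notes, and the build and annotation are not given in the sources used here. Depth is unknown, so no counting intervals are given.

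Differences on log2(TPM + 1) were tested by limma 3.58.1 (R 4.3.3; lmFit, eBayes with trend), keeping genes that averaged 1 TPM or more in the libraries compared. Fold changes on this scale understate those of low genes. The p-values were adjusted by Benjamini-Hochberg over all genes tested and a gene was called under 0.05. Only libraries of the same run entered each comparison. Differences between labels came from 1 fit of 22 libraries as run-by-group cells. The code was tested on simulated data. Alternatives were all 11 control clones, run as a covariate, a pseudocount of 0.1, no filter, median-ratio scaling, quantile normalization, a replicate block and leaving out each library. All 10 genes are named, and from each list the called genes, at most 4 in each direction. Members and lists were chosen with earlier results of these data known. Chromosomes and gene order are from GENCODE M21 (GRCm38), and promoter sequences from RefSeq (GRCm38.p6).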

Additional observations from a re-analysis of the deposited data

Results flagged for a closer look

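In groups of 5 libraries, a library far from the other 4 was looked for in 20 sets of values (10 genes, 2 groups), and 3 were found; chance gives about 1 in 20 sets. Scnn1b was 1.51 TPM in ATF1-KO replicate 5 and 0.23 to 0.51 in the other 4 libraries. Scnn1g was 27.64 TPM in control clone 5 and 12.13 to 16.38 in control clones 1 to 4. Nedd4l was 99.51 TPM in control clone 4 and 126.79 to 132.76 in the other control clones of run 1.

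The own-run change of Sgk1 differed between knockout labels by a test of the difference. It was larger by 4.37 on the log2 scale under ATF1/CREB1-KO and by 4.96 under ATF1/CREB1/CREM-KO than under ATF1-KO (limma adjusted p = 0.0404 and 0.0106). Control clones 1 and 3, with Sgk1 at 828.95 and 833.59 TPM, enter both differences. The first difference was 3.87 without either clone and was no longer called (limma adjusted p = 0.0591 without clone 1 and 0.054 without clone 3). Without either clone the second difference was 4.46 (limma adjusted p = 0.014 and 0.0129).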

How the results depend on the processing

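Of 378 refits of own-run member changes, 333 kept their direction and their side of the threshold, 10 passed it newly, 11 no longer passed it and 24 changed sign, all of these among changes that were not called. Of 176 refits of differences between labels, 159 kept both, 6 passed newly and 11 no longer passed. The cause was not tested for any of these.

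Against all 11 control clones, the log2 changes with turned sign were 0.53 (Fkbp5), 0.47 (Nedd4l), 0.12 (Scnn1a), 0.22 (Scnn1g) and 0.31 (Tsc22d3) under ATF1-KO, -1.36 (Fkbp5), -1.49 (Nedd4l), -0.99 (Nr3c1), -1.28 (Scnn1a), -1.49 (Scnn1g) and -1.21 (Tsc22d3) under ATF1/CREB1-KO, and 0.52 (Scnn1a) under ATF1/CREB1/CREM-KO. Under ATF1/CREB1/CREM-KO Scnn1a also turned to 0.035 with median-ratio scaling and 0.021 with quantile normalization, and Scnn1b to -0.13 with a pseudocount of 0.1. Leaving out 1 library gave changes on both sides of 0 for Scnn1a (-0.12 to 0.15), Scnn1b (-0.13 to 0.24), Scnn1g (-0.055 to 0.59) and Hsd11b2 (-0.53 to 1.45) under ATF1/CREB1/CREM-KO, for Scnn1a (-0.19 to 0.27) and Scnn1g (-0.22 to 0.70) under ATF1/CREB1-KO, and for Scnn1g (-0.59 to 0.027) under ATF1-KO.

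Under ATF1/CREB1-KO, in place of 9 genes, 4260 were called with all 11 control clones, 609 with run as covariate, 18 with median-ratio scaling, 0 without a filter (limma; 1199 at an unadjusted p under 0.05 with the filter) and 0 to 60 when 1 library was left out. Members called there were 1 with all 11 control clones, 2 with run as covariate, 1 with median-ratio scaling, 1 with quantile normalization and 0 to 1 when 1 library was left out. Under ATF1/CREB1/CREM-KO, in place of 1216 genes, 137 were called with all 11 control clones, 710 without a filter and 185 to 489 when any 1 control clone or knockout replicate 2 or 3 was left out and 3317 without replicate 1, and members called were 1 with all 11 control clones and 1 to 5 when 1 was left out. Sgk1 stayed called in each of these leave-one-out fits and missed with all 11 control clones (limma adjusted p = 0.133). Under ATF1-KO 0 to 1 genes were called when 1 library was left out.

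Members called for the difference between ATF1/CREB1-KO and ATF1-KO were 0 without a filter and 0 to 2 when 1 library was left out. For ATF1/CREB1/CREM-KO and ATF1-KO they were 2 with quantile normalization and 1 to 3 when 1 was left out. How many of all genes these refits called is not given, so these counts are no result about the members. With a replicate block in the ATF1-KO comparison 0 genes and 0 members were called. Same-numbered libraries had r from -0.10 to 0.08 there, which cannot tell whether they shared more than a number. The best match was the same-numbered ATF1-KO library for control clones 3 and 5 but not for control clones 1, 2 and 4. The other comparisons share no replicate numbers with their control clones.

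Unknown depth limits the low genes most, Scnn1b and Nr3c2 among them, and 3 libraries a group leave wide intervals for Hsd11b2 and Scnn1g.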
